A study of Mus musculus with 90 samples.

Results

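RNA was compared between 2 lines of J1 mouse embryonic stem cells on day 0 of the neural series, before differentiation: cells labelled CBX7-mCaPS (called mCaPS here) and cells labelled KO. The comparison holds the 6 libraries of these 2 lines on that day, 3 of each, out of the 90 libraries of the study, and libraries with the same replicate number in the labels were taken as pairs. Both lines are J1 cells with an altered CBX7. The genotype CBX7-mCaPS stands for CBX7 that carries a mutated form of the compaction and phase separation (CaPS) domain of CBX2, and CBX7 KO for a line meant to lack CBX7. The stem cells were kept on mouse embryo fibroblast feeders with leukemia inhibitory factor, and the labels give no treatment on day 0. They do not say how many clones stand behind a line, how either allele was made, whether mCaPS cells keep a normal copy, or whether replicates were separate cultures, so the p values measure spread between libraries that may be technical. The other libraries of the neural series were the normal line (WT), CBX7-CaPS (the unmutated CBX2 domain in CBX7), and later days of all 4 lines. They enter the estimate of spread, and some of their levels are given beside the results.

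Polycomb repressive complex 1 (PRC1) keeps developmental genes silent. Its CBX subunit binds histone H3 trimethylated by Polycomb repressive complex 2 (PRC2), and RING1 proteins in PRC1 ubiquitylate histone H2A. CBX7 is the main CBX protein of pluripotent stem cells, and CBX2 is used more in committed cells, where its charged domain compacts chromatin and forms condensates. Known targets of the complex include the Hox clusters and transcription factors of the germ layers.

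The 6 libraries held 30.6 to 53.7 M counts (M, 1e6), and Rn45s, the ribosomal RNA precursor, took 8.83% to 32.9% of them. Even numbers made up 77.3% to 81.1% of the counts from 1 to 20; how a read pair was counted is not given in the sources used here. Stem cell markers were high in all 6, with Pou5f1 at 610 to 859 CPM (counts per 1e6, scaled to library size) and Nanog at 178 to 244 CPM, while Ptprc, a blood marker, stayed at or below 0.412 CPM. Of the fibroblast markers, Lum stayed at or below 0.206 CPM, and the collagen gene Col1a1 was at 37.9 to 89.4 CPM. The mean log2(CPM + 1) of the 20 fibroblast and feeder genes was 3.32 to 3.83 over the 6 libraries, with mCaPS and KO overlapping, against 4.61 to 6.97 in the WT and CaPS libraries of that day. By the summed CPM of these genes the separation was not complete. It was 1421 to 2156 over the 6 libraries, and WT replicate 3 (1771.7) and CaPS replicate 3 (1571.5) lay within that range. The remaining WT and CaPS libraries were at 3890 to 6924.

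Cbx7 RNA was present in both lines. It was at 88.8, 101 and 86.7 CPM in mCaPS replicates 1 to 3 and at 112, 137 and 120 CPM in the libraries labelled KO, against 157 to 191 CPM in WT. The count over the whole gene therefore did not mark the KO line, and it does not show whether protein was made. All 3 mCaPS libraries lay below all 3 labelled KO, as they did for 6.84% of all genes tested. The log2 difference was -0.42 ± 0.32 (SE, adjusted p = 1, edgeR), and -0.41 ± 0.08 (adjusted p = 0.0220) when the replicate number was a block. In the day 0 embryoid body libraries given below, Cbx7 was at 62.0, 136 and 391 CPM in mCaPS and 87.8, 111 and 91.8 CPM in KO. The groups overlapped there, and without mCaPS replicate 3 the log2 difference was 0.03. Cbx2 was at 53.4, 46.5 and 46.2 CPM in mCaPS and at 32.7, 40.3 and 34.7 CPM in KO, a log2 difference of 0.44 ± 0.23 (adjusted p = 1; with the block 0.45 ± 0.12, adjusted p = 0.0640). All 3 mCaPS libraries lay above all 3 KO libraries, as they did for 5.82% of all genes tested. In the embryoid body libraries the Cbx2 groups overlapped, at 28.9, 108 and 329 CPM in mCaPS and 33.3, 56.4 and 33.8 CPM in KO. Reads of the inserted CBX2 domain may be counted to Cbx2 in mCaPS, which was not tested.

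Few genes passed the test over all libraries, and most of those lay on chromosome 8. In a fit of the 36 libraries of 4 lines and 3 days, 29 of 17818 genes (0.163%) passed an adjusted p of 0.05, 5 higher (0.0281%) and 24 lower (0.135%) in mCaPS than in KO. Of these, 21 lay on chromosome 8, all lower, and 4 on chromosome Y, all higher. The other 4 were Grb10, higher, and Kcnq1ot1, Zrsr1 and Sulf2, lower. A fit of the 6 libraries alone with the replicate number as a block passed 877 of 15764 genes (5.56%), with 316 higher (2%) and 561 lower (3.56%), and held all 29. Outside chromosome 8 it passed 521 of 14938 genes (3.49%), 315 higher (2.11%) and 206 lower (1.38%). The blocked count rests on few libraries. It was 134 higher and 274 lower without the replicate 1 pair, 17 and 8 without the replicate 2 pair, and 1128 and 1427 without the replicate 3 pair. Of 93 blocked calls among the genes named here and the members of the gene lists, 11 passed in each of those: Ddx3y, Eif2s3y, Uty, Grb10, Kcnq1ot1, T, Wnt8a, Psmb8, Rhox5, Usp26 and Triml1. With the replicate number within day as a block over all 36 libraries, T, Wnt8a, Psmb8, Rhox5 and Triml1 did not pass (adjusted p 0.0850 to 0.627), and over the 12 day 0 libraries Grb10 did not either (0.119). Blocked calls are given below as such. On simulated data the blocked fit of the 6 libraries made more false calls than its threshold allows.

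Of the 4 genes that passed outside chromosomes 8 and Y, 3 are imprinted. Such genes are expressed by parent of origin, under control of DNA methylation at CG dinucleotides. Their starts are shown with each CG in capitals, but the sites of that methylation were not looked up and may lie elsewhere. Each window runs from 250 bases before to 50 bases after the start, 5′ to 3′ on the gene's strand. The windows are from RefSeq on GRCm38.p6, the build of the counts. The Kcnq1ot1 window is chr7:143296498-143296797 (minus strand, 9 CG), that of Grb10 is chr11:12037371-12037670 (minus strand, 45 CG, the first of 2 starts listed) and that of Zrsr1 is chr11:22971755-22972054 (plus strand, 10 CG).
Kcnq1ot1: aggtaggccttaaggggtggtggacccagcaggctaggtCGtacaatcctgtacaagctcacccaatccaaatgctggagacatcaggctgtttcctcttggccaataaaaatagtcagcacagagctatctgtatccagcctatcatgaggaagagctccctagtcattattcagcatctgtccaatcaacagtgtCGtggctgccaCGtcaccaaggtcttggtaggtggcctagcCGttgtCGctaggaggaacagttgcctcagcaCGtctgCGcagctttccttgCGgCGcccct
Grb10: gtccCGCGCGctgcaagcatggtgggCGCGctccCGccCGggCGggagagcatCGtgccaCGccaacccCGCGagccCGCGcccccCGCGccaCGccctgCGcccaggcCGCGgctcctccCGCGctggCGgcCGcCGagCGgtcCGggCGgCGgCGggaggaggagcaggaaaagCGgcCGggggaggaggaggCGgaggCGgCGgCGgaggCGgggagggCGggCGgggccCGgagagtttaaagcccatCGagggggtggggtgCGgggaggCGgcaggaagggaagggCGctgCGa
Zrsr1: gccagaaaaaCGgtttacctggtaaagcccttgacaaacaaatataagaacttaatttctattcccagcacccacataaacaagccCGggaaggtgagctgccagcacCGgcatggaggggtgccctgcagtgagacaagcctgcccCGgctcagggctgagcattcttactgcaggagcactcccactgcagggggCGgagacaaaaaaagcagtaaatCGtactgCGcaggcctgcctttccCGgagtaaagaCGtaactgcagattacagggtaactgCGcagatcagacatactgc
The median of 32851 such windows was 7 CG. Windows with at least as many CG as that of the first Grb10 start made up 1.933%, against 45.78% for Kcnq1ot1 and 43.47% for Zrsr1. The second Grb10 start, with its window at chr11:12027922-12028221, had 9 CG (45.78%), so the Grb10 value depends on the start chosen. The counts say nothing of the methylation of these bases.

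Kcnq1ot1, a long antisense RNA that starts inside Kcnq1 and is known to silence neighbouring genes on the paternal chromosome, was much lower in mCaPS. It spans chr7:143213111-143296547. Its level was 15.7, 18.9 and 27.0 CPM in mCaPS and 64.5, 88.5 and 204 CPM in KO. Every mCaPS library lay below every KO library, and in each line replicate 3 was the highest. The log2 difference was -2.54 ± 0.36 (adjusted p = 0.000327; with the block -2.39 ± 0.18, adjusted p = 0.00292). WT libraries were at 82.6, 106 and 160 CPM and CaPS libraries at 92.0, 109 and 175 CPM, so on day 0 the mCaPS libraries were the low ones. Within 500 kb of it 19 other genes were tested, and none passed in the fit of 36 libraries. With the block 2 passed (against 3.49% of all genes outside chromosome 8), both higher in mCaPS. Tnfrsf26 and Th were not fitted with the block. Cdkn1c, a cell cycle inhibitor that Kcnq1ot1 is known to silence, was at 64.0, 68.1 and 52.8 CPM against 28.5, 48.6 and 38.4 CPM in KO (block log2 0.70 ± 0.15, adjusted p = 0.0303). Ascl2, a trophoblast factor, had means of 3.56 against 1.56 CPM and a block log2 of 1.19 ± 0.26 (adjusted p = 0.0346). Both calls were lost without the replicate 1 or 2 pair (adjusted p 0.0888 to 0.181) and with the block over 36 libraries (0.660 and 0.941). In the day 0 embryoid body libraries given below, without mCaPS replicate 3, Cdkn1c was at 0.28 and Ascl2 at -0.04 on the log2 scale. Phlda2, a placental growth regulator, and Slc22a18, a transporter, of the same domain did not pass (0.28 and 0.44 on the log2 scale, adjusted p = 1 for both). Kcnq1 itself had a mean of 0.388 CPM in mCaPS and 0.653 CPM in KO. The strand setting of the counting is not given in the sources used here, so reads of Kcnq1 and of its antisense RNA cannot be told apart.

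Grb10, an adaptor that dampens insulin and growth factor receptor signalling, was higher in mCaPS. At chr11:11930499-12037420 it was at 393, 334 and 206 CPM in mCaPS and 109, 109 and 54.4 CPM in KO, with no overlap and a ratio of 3.60, 3.07 and 3.79 in pairs 1 to 3. The log2 difference was 1.78 ± 0.31 (adjusted p = 0.00634; with the block 1.80 ± 0.09, adjusted p = 4.27e-05). WT libraries were at 276, 293 and 368 CPM, so on day 0 the KO libraries were the low ones. Without mCaPS replicate 1 the difference was 1.57 and did not pass. Of the 7 other genes tested within 500 kb, only Cobl, an actin nucleator, passed with the block, against 3.49% of all genes outside chromosome 8. Spata48 was not fitted with the block. Cobl was lower in mCaPS on day 0 (67.0, 82.0 and 68.8 against 108, 113 and 99.0 CPM, block log2 -0.55 ± 0.09, adjusted p = 0.00926). On days 6 and 8 it was higher in mCaPS, at 2.64 and 4.36 on the log2 scale in the fit of 36 libraries.

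Zrsr1, a paternally expressed gene of a splicing factor, lies in an intron of Commd1 at chr11:22972005-22976496. It was at 17.8, 15.8 and 15.5 CPM in mCaPS and 33.8, 29.1 and 25.9 CPM in KO (log2 -0.85 ± 0.18, adjusted p = 0.0420). The ratios in pairs 1 to 3 were 0.526, 0.545 and 0.600, and the groups did not overlap. Commd1, its host, had means of 33.4 CPM in mCaPS and 32.9 CPM in KO and did not pass. Sulf2, a sulfatase that trims heparan sulfate outside the cell, was the remaining call. It was at 109, 123 and 113 CPM in mCaPS and 177, 189 and 157 CPM in KO (log2 -0.60 ± 0.13, adjusted p = 0.0433). Both calls were lost when any 1 of the 6 libraries except KO replicate 3 was left out (adjusted p 0.116 to 0.307).

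Among all 39 imprinted genes of the list, Grb10 rose and Kcnq1ot1 fell in the fit of 36 libraries, and 24 of 39 lay above 0 (median 0.11 against 0.0165 for all genes outside chromosome 8). With the block, 4 were higher and 6 lower, against 2.11% and 1.38% of all genes outside chromosome 8. Besides Grb10 and Cdkn1c, the higher ones were H19, a maternal long RNA (7.19, 6.60 and 5.76 against 4.44, 3.18 and 2.57 CPM), and Magel2 (block log2 0.58 ± 0.14). Besides Kcnq1ot1 and Cobl, the lower ones were Igf2, the growth factor next to H19 (71.8, 37.8 and 53.8 against 127, 68.0 and 88.2 CPM), Nnat, a membrane protein of developing neurons (21.0, 17.3 and 14.7 against 42.2, 44.7 and 36.6 CPM), Impact, a regulator of the GCN2 kinase (block log2 -0.78 ± 0.10), and Sgce (-0.78 ± 0.14). The groups did not overlap for H19, Nnat and Impact, and they overlapped for Igf2, which was lower in mCaPS within each pair. Nnat was named under a rule that asked for groups without overlap. Other than those of Grb10 and Kcnq1ot1, these blocked calls were lost without the replicate 2 pair (adjusted p 0.0577 to 0.385).

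**Figure D1:**
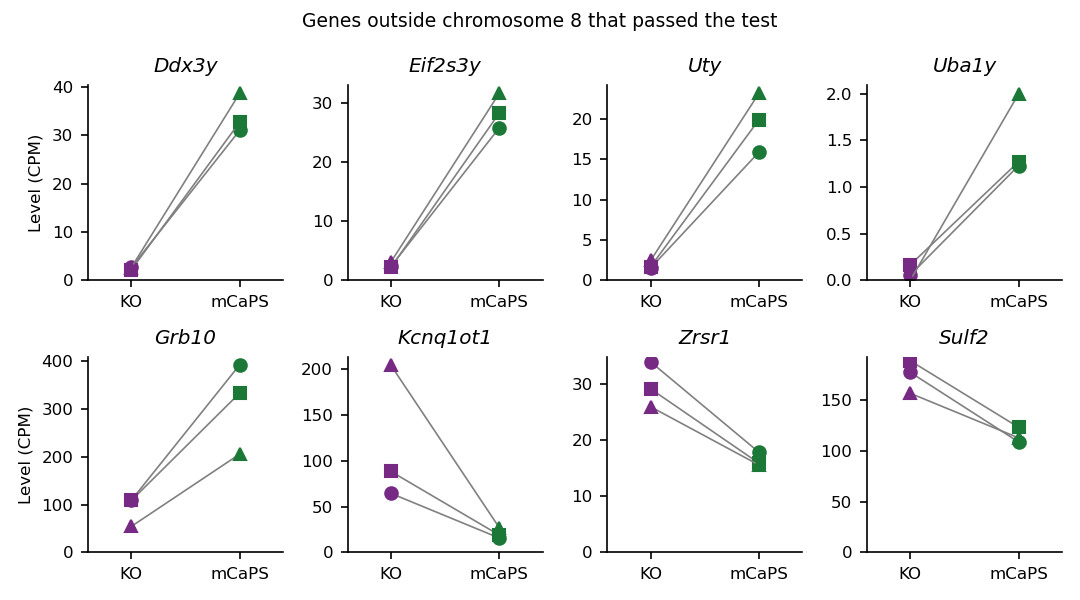
Levels in CPM (vertical axes from 0) of the 8 genes outside chromosome 8 that passed in the fit of 36 libraries, in the 3 KO and 3 mCaPS libraries; grey lines join libraries of the same replicate number (circle 1, square 2, triangle 3). Grb10 and the 4 Y-linked genes were higher in mCaPS in 3 of 3 pairs, and Kcnq1ot1, Zrsr1 and Sulf2 lower in 3 of 3.

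Among the 29 calls of the fit of 36 libraries, the 4 Y-linked genes had the largest fold changes. Ddx3y, an RNA helicase gene, was at 31.0, 32.7 and 38.7 CPM in mCaPS and 2.64, 2.14 and 2.62 CPM in KO, 13.9-fold higher (log2 3.79 ± 0.31, adjusted p = 1.04e-08). Eif2s3y, a translation initiation factor gene, was at 25.7, 28.2 and 31.6 against 2.33, 2.18 and 3.09 CPM, and Uty, a histone demethylase homologue, at 15.9, 19.9 and 23.2 against 1.52, 1.68 and 2.44 CPM. Uba1y, a ubiquitin-activating enzyme gene, was at 1.23, 1.27 and 2.00 against 0.0562, 0.164 and 0 CPM. The KO libraries were thus low but not empty for the first 3 genes, with Ddx3y at 7.22% of its mean in mCaPS. All 7 Y-linked genes tested lay above 0, and 5 passed with the block. In the median over Ddx3y, Eif2s3y and Uty, the KO libraries were also the low ones against WT and CaPS. Genes of chromosome X, with a median difference of 0.01 over 640 genes, did not shift with them.

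Chromosome 8 genes were lower in mCaPS almost throughout. The median log2 difference over 916 genes was -0.52, that is 1.43-fold lower, against 0.0165 over the genes of all other chromosomes, and 90.2% lay below 0 (other genes, 47.1%). In 43.1% of them all 3 mCaPS libraries lay below all 3 KO libraries, against 6.84% of all genes tested (5.82% the other way). With the block 355 of 826 (43.0%) were lower and 1 was higher. The shift was alike in the pairs: over the 540 chromosome 8 genes of at least 10 CPM, the median log2 ratio was -0.50, -0.52 and -0.50 in pairs 1 to 3, and 88.7%, 96.3% and 97.6% of the genes were lower in mCaPS. It ran along the whole chromosome, with medians from -0.60 to -0.44 in 10 equal stretches. No other autosome and not X shifted as far: their medians lay between -0.02 and 0.10, the highest on chromosome 11.

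**Figure D2:**
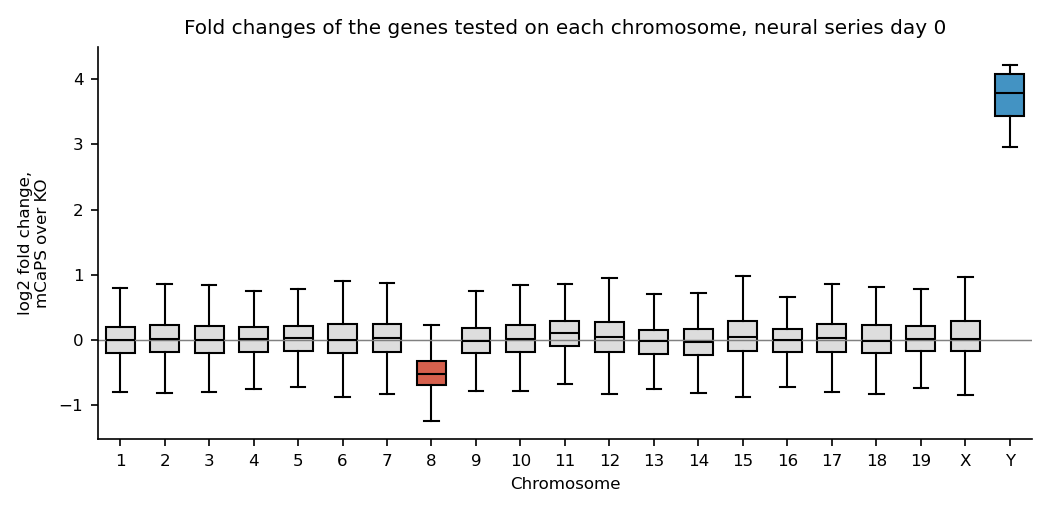
Log2 fold change, mCaPS over KO, of the genes tested on each chromosome (box: quartiles with the median as a line; whiskers: the farthest gene within 1.5 box lengths; genes beyond are not drawn). The box of chromosome 8 (916 genes, median -0.52) lies below 0 and that of chromosome Y (7 genes, median 3.79) far above it, while the other medians lie between -0.02 and 0.10.

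Against the other lines of that day, the KO libraries were above all others on chromosome 8, and the mCaPS libraries were low together with CaPS libraries. Relative to the mean of the 12 day 0 libraries of 4 lines, the median chromosome 8 level (log2) was -0.25, -0.22 and -0.20 in mCaPS and 0.27, 0.32 and 0.33 in KO. WT libraries were between, at 0.11 to 0.17, and CaPS libraries were at -0.02, -0.25 and -0.21, of which replicates 2 and 3 were as low as mCaPS. The copy number of chromosome 8 was not measured, and an unequal copy number, line history and CBX7 form cannot be told apart here.

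**Figure D3:**
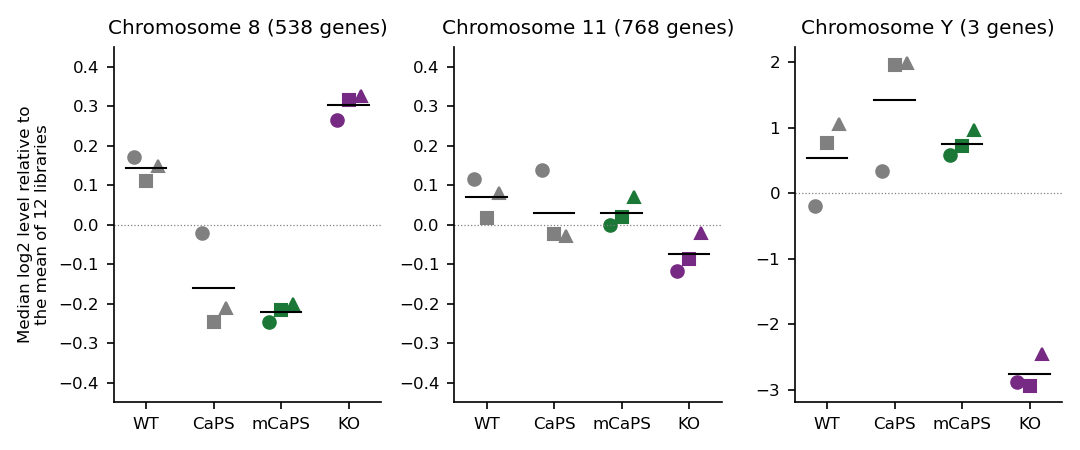
Median log2 level of the genes of chromosomes 8, 11 and Y in each of the 12 day 0 libraries, relative to the mean of the 12 (circle, square and triangle: replicates 1, 2 and 3; bar: mean of 3 libraries; the Y panel has its own scale). On chromosome 8 the 3 mCaPS libraries lie at -0.25 to -0.20 and the 3 KO libraries at 0.27 to 0.33; on chromosome Y the 3 KO libraries lie below all others.

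The 21 chromosome 8 genes that passed in the fit of 36 libraries were lower in mCaPS by log2 differences of -1.36 to -0.59, up to 2.57-fold, and the groups overlapped for none. The smallest p belonged to Rab4a, a GTPase of endosome recycling, at 18.7, 18.97 and 16.6 CPM in mCaPS and 39.9, 40.5 and 32.6 CPM in KO (log2 -1.06 ± 0.14, adjusted p = 0.000109). The largest difference was that of Snx25, a sorting nexin, at 6.55, 6.78 and 3.51 against 16.5, 17.7 and 9.05 CPM (-1.36 ± 0.29, adjusted p = 0.0445). Ckap2, a mitotic spindle protein, was at 75.8, 78.4 and 92.2 against 178, 142 and 139 CPM (-0.90 ± 0.19), and Hsbp1 and N4bp1 followed at -0.75 each.

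With the block, 4 further named chromosome 8 genes were at -1.39 or lower. They were named among blocked calls without overlap and of at least 1 CPM, so 4 is not a count of all such genes. Sox1, a transcription factor of early neural progenitors, was at 0.461, 1.68 and 2.28 CPM in mCaPS and 3.93, 15.9 and 8.23 CPM in KO (block log2 -2.68 ± 0.30, adjusted p = 0.00389). Triml1 was at 18.6, 22.9 and 14.6 against 43.8, 53.3 and 48.4 CPM (-1.39 ± 0.13), and Zmat4 had a block log2 of -1.59 ± 0.18. Mt3, a brain metallothionein, was at 0.307, 0.410 and 0.599 against 1.26, 1.75 and 1.44 CPM (-1.78 ± 0.37). These are low counts, of 12 to 21 in each mCaPS library. Several listed genes that passed lower with the block lie on chromosome 8: Col4a1, Col4a2, Fgfr1, Sfrp1, Mcm5, Msmo1 and Tex15. Without the replicate 2 pair, all blocked calls of this paragraph except that of Triml1 were lost (adjusted p 0.0586 to 0.312). With the block over 36 libraries, Sox1, Triml1, Mt3 and Zmat4 did not pass (0.647, 0.627, 0.622 and 0.212).

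Outside chromosome 8, 5 of 14 genes of the formative state, between naive and primed pluripotency, were higher in mCaPS with the block. Of all genes outside chromosome 8, 2.11% were. Of 14 formative genes, 14 lay above 0 (median 0.59, against 0.0165 for all genes outside chromosome 8), and none passed in the fit of 36 libraries. The list median in the EB day 0 libraries without mCaPS replicate 3 was 0.11. Dnmt3b, a de novo DNA methyltransferase, was at 722, 1041 and 814 CPM in mCaPS and 342, 494 and 512 CPM in KO (log2 0.93 ± 0.21, adjusted p = 0.0594; block 0.94 ± 0.10, adjusted p = 0.00372). Fgf5, the marker of the epiblast, was at 15.7, 13.8 and 32.0 CPM against 3.84 to 15.0 CPM (block 1.61 ± 0.18, adjusted p = 0.00463). Otx2, a factor of the formative state, was at 40.7, 67.1 and 36.1 against 16.0, 25.9 and 28.7 CPM (block 1.03 ± 0.22, adjusted p = 0.0499). Sall2 and the FGF target Etv5 passed too, at 0.68 and 0.58. All 5 blocked calls were lost without the replicate 2 pair (adjusted p 0.0588 to 0.276), and those of Otx2 and Etv5 also without the replicate 1 pair (0.152 and 0.148). Dnmt3b and Otx2 did not overlap between the groups; for Fgf5, KO replicate 3 reached into the mCaPS range.

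Genes of the primitive streak, where mesoderm and endoderm arise, were higher in mCaPS in part, at levels that varied widely between replicate numbers. T (brachyury) was at 26.0, 9.26 and 82.8 CPM in mCaPS and 4.55, 1.48 and 19.9 CPM in KO, with ratios of 5.72, 6.26 and 4.15 in pairs 1 to 3. The groups overlapped. It did not pass without the block (log2 2.19 ± 1.05, adjusted p = 1), and with it the log2 difference was 2.38 ± 0.15 (adjusted p = 0.000212). Wnt8a, a WNT ligand of the streak, was at 3.69, 1.72 and 13.6 against 0.814, 0.308 and 2.47 CPM (block 2.37 ± 0.23, adjusted p = 0.00292). Wnt3, the ligand that starts the streak, and Mixl1, a homeobox factor there, were at 0.73 ± 0.15 and 1.62 ± 0.37 with the block. Of 14 streak genes tested, 10 lay above 0 and 4 passed with the block (against 3.49% of all genes outside chromosome 8), all higher. The WNT target Axin2 passed as well (block 0.63 ± 0.14, adjusted p = 0.0389). T and Wnt8a passed with any pair left out, but not with the block over 36 libraries (adjusted p 0.110 and 0.194) or over the 12 day 0 libraries (0.501 and 0.233), while Wnt3, Mixl1 and Axin2 were lost without the replicate 2 pair (adjusted p 0.0928 to 0.158). In these bulk libraries, fewer cells of a type and less RNA per cell cannot be told apart. Beside these genes, 15 of the 20 fibroblast and feeder genes also lay above 0 (median 0.37) and 1, Acta2, passed with the block; the mean log2 level of that list overlapped between the lines as given above, and its part in the result was not tested.

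Of 24 naive pluripotency genes, 3 were lower and 1 higher with the block, and none passed in the fit of 36 libraries. Over all genes outside chromosome 8, 3.49% passed with the block. Of the 24, 9 lay above 0 (median -0.13), and the EB median without mCaPS replicate 3 was -0.51. Esrrb, an orphan nuclear receptor of the naive network, was at 204, 300 and 237 CPM in mCaPS and 302, 376 and 330 CPM in KO (block -0.45 ± 0.09, adjusted p = 0.0183). Fgf4, the ligand that primes stem cells for commitment, was at 94.5, 133 and 98.8 against 172, 179 and 157 CPM (block -0.65 ± 0.10), and Tcl1, a coactivator of AKT kinase, at 10.5, 15.8 and 18.1 against 19.3, 24.5 and 33.0 CPM (-0.79 ± 0.12). Tdgf1, the Nodal coreceptor, was higher (0.48 ± 0.11). Nanog and Pou5f1, core factors of the network, did not pass, at -0.25 ± 0.09 and 0.18 ± 0.08 with the block. The 4 blocked calls were lost without the replicate 2 pair (adjusted p 0.0634 to 0.350).

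Hox genes, which pattern the body axis and are known Polycomb targets, were lower in part. Of 36 Hox genes tested, 13 lay above 0 (median -0.38), none passed in the fit of 36 libraries, and 5 of the 22 fitted with the block passed (against 3.49% of all genes outside chromosome 8), all lower in mCaPS and all in the HoxD cluster. The EB median of the list without mCaPS replicate 3 was 0.32. Hoxd13 was at 1.23, 1.47 and 2.00 CPM in mCaPS and 4.16, 5.47 and 6.28 CPM in KO (block -1.76 ± 0.22, adjusted p = 0.00491). Hoxd9 was at 0.0512, 0.123 and 0.171 against 1.32, 1.27 and 0.669 CPM (block -3.19 ± 0.57), and Hoxd8, Hoxd10 and Hoxd11 were at most 1.44 CPM in any of the 6 libraries. The groups did not overlap for any of the 5, but the rule that named Hoxd8, Hoxd9, Hoxd11 and Hoxd13 asked for this. Of all genes tested, 12.7% did not overlap, and of the 877 blocked calls 579 did not. Except for Hoxd13 these are low counts, of 0 to 12 in each mCaPS library. The blocked calls of the 5 Hox genes were lost without the replicate 2 pair (adjusted p 0.0766 to 0.236). Among 48 other developmental transcription factors, 13 lay above 0 (median -0.54, or -0.45 for the 45 outside chromosome 8, and -0.17 in the EB libraries without mCaPS replicate 3). Of 43 fitted with the block, 1 passed, a share below the 3.49% of all genes outside chromosome 8. It was Gata3 (5.89, 1.598 and 3.25 against 13.5, 6.25 and 6.17 CPM; -1.35 ± 0.23). Outside that list, Lhx2, Prdm16, Fgf1 and Otx1 were named because their blocked fold changes were among the lowest, so they stand for no set. Lhx2, a factor of eye and forebrain, was at 0.614, 0.656 and 0.228 against 3.51, 4.19 and 1.80 CPM (block -2.68 ± 0.29, adjusted p = 0.00372). Prdm16, a histone methyltransferase-like factor of neural and brown fat cells, was at 2.74, 3.34 and 1.597 against 11.1, 12.6 and 4.19 CPM (-1.79 ± 0.20). Fgf1 and Otx1 were lower as well, at -1.88 ± 0.22 and -1.85 ± 0.40. These 5 calls too were lost without the replicate 2 pair (adjusted p 0.0586 to 0.312).

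**Figure D4:**
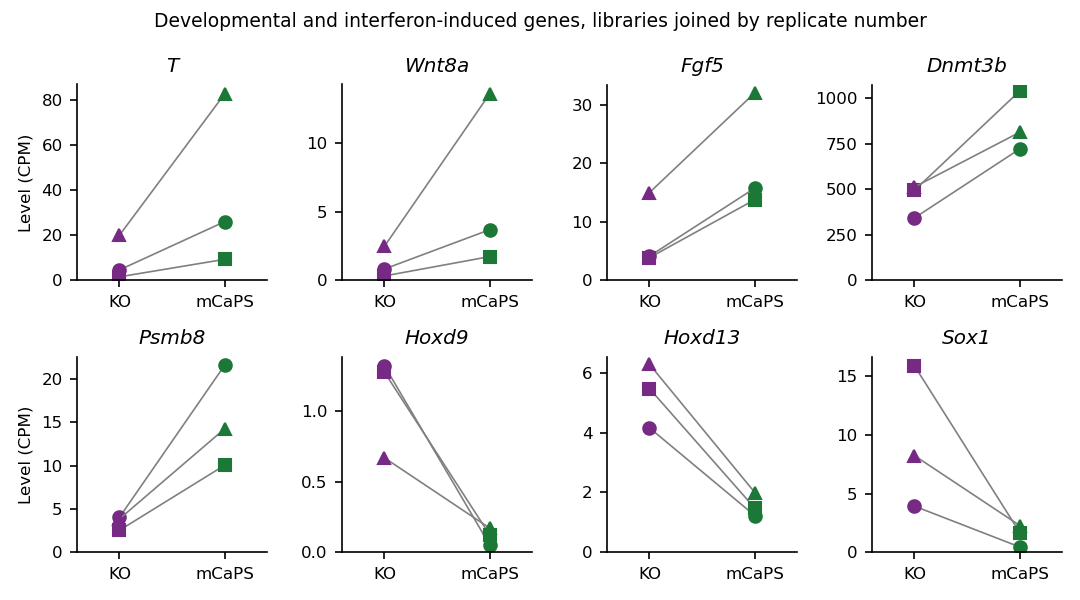
Levels in CPM (vertical axes from 0) of 8 developmental and interferon-induced genes in the 3 KO and 3 mCaPS libraries; grey lines join the same replicate number (circle 1, square 2, triangle 3). T, Wnt8a, Fgf5, Dnmt3b and Psmb8 were higher, and Hoxd9, Hoxd13 and Sox1 (chromosome 8) lower, in mCaPS in 3 of 3 pairs, while T and Wnt8a varied more between replicate numbers than within a pair.

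Among the genes of the Polycomb complexes themselves, none passed in the fit of 36 libraries. Of 24 PRC1 genes, 3 passed with the block (against 3.49% of all genes outside chromosome 8), all lower in mCaPS: Cbx7, Bmi1, a PCGF subunit, at 3.99, 4.51 and 5.59 against 6.49, 10.6 and 12.4 CPM (-1.03 ± 0.18, adjusted p = 0.0127), and Mga, a partner of PCGF6, at 317, 413 and 424 against 464, 515 and 547 CPM (-0.41 ± 0.08, adjusted p = 0.0252). None of 12 PRC2 genes passed with the block. Ezh2, the catalytic subunit, was at 122 to 129 CPM in mCaPS and 139 to 149.9 CPM in KO (-0.20 ± 0.08 with the block, adjusted p = 0.190). The blocked calls of the 3 were lost without the replicate 2 pair (adjusted p 0.144 to 0.246), and those of Cbx7 and Mga also without the replicate 1 pair (0.0602 and 0.213).

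Interferon-induced genes were higher in part. Of 22 tested, 16 lay above 0 (median 0.63). Of 20 fitted with the block, 4 passed (against 3.49% of all genes outside chromosome 8), all higher. Psmb8, a subunit of the immunoproteasome, was at 21.6, 10.1 and 14.3 CPM in mCaPS and 4.04, 2.55 and 3.86 CPM in KO (log2 2.14 ± 0.84, adjusted p = 0.744, and with the block 2.10 ± 0.17, adjusted p = 0.00142). It was named under a rule that asked for groups without overlap, so its lack of overlap was fixed by that rule. Ifih1, a sensor of double-stranded RNA, Oasl2, an antiviral protein, and H2-K1, a class I antigen-presenting molecule, were at 1.93 ± 0.37, 1.25 ± 0.21 and 0.75 ± 0.13. Irf9, a transcription factor of the interferon response, did not pass (-0.15 ± 0.14), nor did B2m, the partner chain of class I molecules (-0.62 ± 0.28). The blocked calls of Ifih1 and Oasl2 were lost without the replicate 2 pair (adjusted p 0.121 and 0.123), and that of H2-K1 without the replicate 1 or 2 pair (0.0587 and 0.0634). With the block over 36 and over 12 libraries, Psmb8 did not pass (0.580 and 0.214).

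Genes normally used in germ cells were lower in part, and single genes were higher. Of 24 listed, 9 lay above 0, and Tex14, Prdm1, Stag3 and, on chromosome 8, Tex15 were lower with the block (-0.92 ± 0.13, -0.80 ± 0.12, -0.47 ± 0.11 and -0.86 ± 0.18). Over all genes fitted with the block, 3.56% were lower. On chromosome X, Rhox5, a homeobox gene of the testis, was at 12.2, 11.9 and 12.1 CPM in mCaPS and 2.19, 2.26 and 3.37 CPM in KO (log2 2.21 ± 0.59, adjusted p = 0.167; block 2.24 ± 0.19, adjusted p = 0.00231). Usp26, a testis deubiquitinase, was at 9.19, 14.2 and 13.8 against 0.871, 1.25 and 1.88 CPM (3.21 ± 0.82, adjusted p = 0.139; block 3.25 ± 0.21, adjusted p = 0.000225). Both were named under a rule that asked for groups without overlap, so their lack of overlap was fixed by that rule. Khdc3, an oocyte gene, was higher too, at 4.22, 7.99 and 7.93 against 0.393, 1.19 and 3.47 CPM (block 2.31 ± 0.41, adjusted p = 0.0228). Rhox5 and Usp26 passed with any pair left out. With the block over 36 or 12 libraries Usp26 passed (adjusted p 0.00429 and 0.00479) and Rhox5 did not (0.0850 and 0.0686), while the other 5 were lost without the replicate 2 pair (adjusted p 0.0764 to 0.243).

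Other stem cell libraries of the same 2 lines, from day 0 of the embryoid body (EB) series, gave the same genes side by side. They held more feeder RNA, with a mean log2(CPM + 1) of the fibroblast list of 6.41 to 6.75 in mCaPS and 5.67 to 6.14 in KO, and Rn45s took 88.7% of mCaPS replicate 3. In the fit of all 36 EB libraries 4 of 17791 genes passed (0.0225%), and without that library 0 of 18088 passed by edgeR (1054 at an unadjusted p under 0.05). Grb10 was at 266, 270 and 192 CPM in mCaPS and 72.6, 77.9 and 70.1 CPM in KO there. Kcnq1ot1 was at 34.8, 36.2 and 17.9 against 134, 178 and 159 CPM. Both again showed no overlap. On chromosome Y the EB libraries differed: Ddx3y was at 45.2, 40.3 and 10.2 CPM in mCaPS and 27.4, 7.60 and 7.67 CPM in KO, so KO replicate 1 was not low and mCaPS replicate 3 was. The chromosome 8 shift was there too, with a median of -0.51 and 82.6% of genes below 0 without mCaPS replicate 3, and a level of -0.24 and -0.28 in mCaPS replicates 1 and 2 against 0.18 to 0.25 in KO. With all libraries the median was -0.41 and 71.7% lay below 0. Without that library, 465 of the 521 blocked calls outside chromosome 8 (89.3%) had the same sign in the EB libraries, against 57.5% of all genes tested there. T (3.19), Wnt8a (2.65), Fgf5 (2.03), Psmb8 (1.71), Hoxd11 (-3.25) and Hoxd9 (-0.18) kept their sign on the log2 scale. Hoxd8 (0.27), Khdc3 (-0.84), Cbx7 (0.03) and Ascl2 (-0.04) did not, nor did Gata3, Col4a1 and Col4a2. Of the 10 blocked calls among the imprinted genes, 8 kept their sign.

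**Figure D5:**
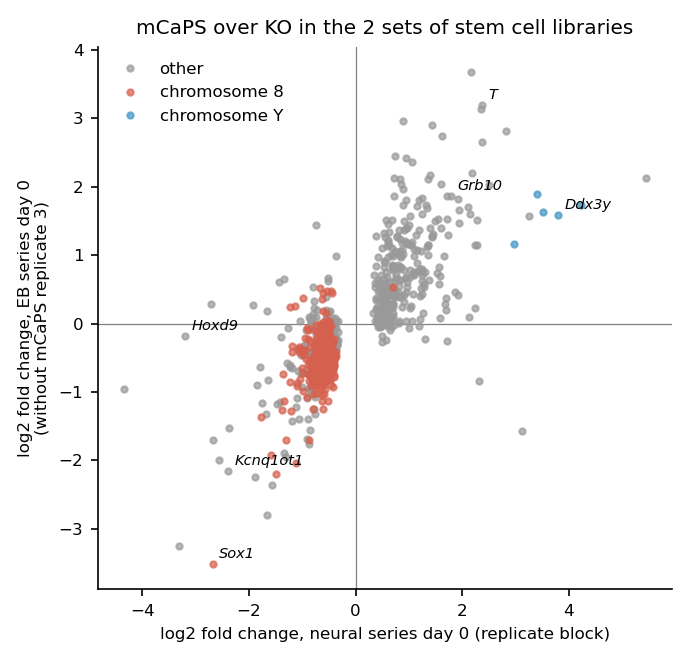
Log2 fold change, mCaPS over KO, of the genes that passed with the replicate block on day 0 of the neural series (horizontal axis), against the same in the EB day 0 libraries without mCaPS replicate 3 (vertical axis). Points above 0 on both axes or below 0 on both had the same sign; outside chromosome 8 these were 465 of 521 genes.

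On later days of the neural series the 2 lines differed more: 732 genes passed on day 6 (4.11%) and 1144 on day 8 (6.42%), while the change of the difference from day 0 passed for 12 genes on day 6 (0.0673%) and 1 on day 8 (0.00561%). These comparisons share no libraries with day 0 but share the fit. The log2 difference of Kcnq1ot1 was -2.26 on day 6 (adjusted p = 0.000602) and -2.32 on day 8 (0.000983), and that of Ddx3y was 3.50 and 3.27 (2.50e-08 and 9.28e-08). The chromosome 8 median was -0.47 and -0.53. Grb10 reached 6.81 on day 6 and 5.56 on day 8 (adjusted p = 9.31e-13 and 3.88e-11). Sulf2 passed on day 6 (-0.59) and not on day 8, at 0.00, and Zrsr1 passed on neither day. T was at -0.39 and 1.76 and did not pass on either day.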

How the data were processed

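The authors deposited a table of whole-number read counts per gene for the neural series and one for the EB series, on mm10 per the file headers and the submitters' processing notes. Those notes name HOMER 4.10.4, featureCounts 1.6.3, edgeR, STAR 2.7.0 and cutadapt 1.14, and per the labels' protocols ribosomal RNA was depleted and a directional kit was used. The strand setting of the counting is not given in the sources used here. There were 9 columns of per-sample values that match no sample, which were not used, and 23 date-like gene names were left out of the EB table.

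Counts were fitted with edgeR 4.0.16 (quasi-likelihood test, TMM scaling, filterByExpr) in R 4.3.3, over 36 libraries in 12 groups of line and day, with Benjamini-Hochberg adjustment over all genes tested and a threshold of 0.05. SE is the unshrunk log2 difference divided by the root of F. CPM are counts per 1e6 of a library, scaled by TMM. A second fit held the 6 libraries with the replicate number as a block. Deviations from the group means correlated at 0.667, 0.613 and 0.726 between libraries of the same number over 9101 genes of at least 10 CPM, and every library correlated best with its own number, so the numbers were taken as pairs from the data; the labels state no shared batch. No 2 libraries held the same counts. Both fits were tested on simulated data, where the blocked fit made more false calls than its threshold allows.

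The named genes are Cbx7 and Cbx2, then up to 10 called genes each way and 10 by p outside chromosome 8 and up to 5 each way on it, with groups that do not overlap and at least 1 CPM, and called members of 29 gene lists. The same rule was applied to the blocked fit after its values were seen, and Commd1, Kcnq1, Phlda2, Slc22a18, Nanog, Pou5f1, Ezh2, Irf9 and B2m were named after theirs were. The comparison and the lists were chosen with earlier results of these data known. Alternatives were other scalings, filters, tools (DESeq2 1.42.0), libraries and blocks. Promoter windows are from RefSeq. Single genes that the rule names are not reported here.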

Additional observations from a re-analysis of the deposited data

Results flagged for a closer look

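Grb10 differed more between mCaPS and KO on later days than on day 0 by the interaction test of edgeR over the 36 libraries. Its log2 difference on day 6 exceeded that on day 0 by 5.03 ± 0.44 (SE, adjusted p = 7.86e-08), and that on day 8 by 3.79 ± 0.43 (adjusted p = 2.68e-05). The day 0 values behind both are 393, 334 and 206 CPM in mCaPS and 109, 109 and 54.4 CPM in KO.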

How the results depend on the processing

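Against 5 genes higher and 24 lower (21 of them on chromosome 8; outside it 5 higher and 3 lower), DESeq2 gave 12 higher and 83 lower (75 on chromosome 8; outside it 12 and 8). Without a filter on low counts 12 were lower (11 on chromosome 8, 1 outside), and the chromosome 8 median was -0.49. With Rn45s left out 15 were lower, 13 of them on chromosome 8, and with chromosome 8 left out 1 was. The 12 day 0 libraries gave 2 higher and 0 lower, and the 6 libraries without a block 3 higher and 0 lower, on chromosome 8 and outside it alike. Leaving out 1 library at a time gave 3 to 11 higher, 3 to 39 lower, 2 to 30 lower on chromosome 8, and 3 to 11 higher and 1 to 9 lower outside it; the most came without KO replicate 3. Of the 29 calls, 7 to 23 passed in each of these. The causes were not tested.

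The replicate block moved the counts most. In the 6 libraries it gave 316 higher and 561 lower (chromosome 8: 1 and 355; outside it 315 and 206), and 159 and 136 with chromosomes 8 and Y left out. Without the replicate 1 pair it gave 134 higher and 274 lower (chromosome 8: 1 and 214; outside it 133 and 60). Without the replicate 2 pair it gave 17 and 8 (6 lower on chromosome 8; outside it 17 and 2), and without the replicate 3 pair 1128 and 1427 (chromosome 8: 6 and 439; outside it 1122 and 988). These blocks over other libraries were chosen after seeing the data: within day over 36 libraries 7 were higher and 50 lower (46 on chromosome 8; outside it 7 and 4), and over 12 day 0 libraries 4 higher and 1 lower (0 on chromosome 8). All 29 calls passed with the block in the 6 and the 36 libraries, but 4 of 29 over the 12 day 0 libraries and 5 of 29 in the 6 libraries without the replicate 2 pair.

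In the EB day 0 libraries the block gave 0 higher and 0 lower, and leaving out 1 library at a time 0 to 178 higher and 0 to 12 lower. The EB chromosome 8 median was -0.41 with all libraries and -0.51 without mCaPS replicate 3. In the neural series the day 0 chromosome 8 median lay between -0.53 and -0.49 under every setting that kept the chromosome, and no direction was reversed among the results tried. Even counts dominate at low values, which limits what the depth of low genes shows.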

Other observations

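Single genes of signalling pathways that act in the early embryo passed with the replicate block in both directions. Of 20 BMP and Nodal genes fitted with it, 4 were higher, among them Tdgf1 given above, and 1 was lower. Of 17 FGF pathway genes outside chromosome 8, 3 were higher and 1 lower. Over all genes outside chromosome 8, 2.11% were higher and 1.38% lower. Among 21 BMP and Nodal genes, Bmp2, a ligand, was at 3.28, 1.35 and 2.11 CPM in mCaPS and 1.18, 0.247 and 1.08 CPM in KO (block log2 1.55 ± 0.35, adjusted p = 0.0354). Id3, a BMP target, and Smad7, an inhibitor of the pathway, were higher as well (0.60 ± 0.13 and 0.46 ± 0.10), and Id2, another BMP target, was lower (-0.61 ± 0.14). Fgfr2, an FGF receptor, was higher (0.48 ± 0.11). These 5 calls were lost without the replicate 1 pair (adjusted p 0.0602 to 0.199) and without the replicate 2 pair (0.228 to 0.354).

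Of 20 genes of the amino acid stress response, 20 lay above 0 (median 0.25) and none passed in either fit; the EB median without mCaPS replicate 3 was -0.04. Of 16 genes of the 2-cell stage 3 lay above 0 (median -0.24) and none passed, beside an EB median of -2.81. Epha1, an ephrin receptor, was at 97.4, 59.8 and 94.1 CPM in mCaPS and 55.8, 31.0 and 45.01 CPM in KO (block log2 0.94 ± 0.09, adjusted p = 0.00302; without the replicate 2 pair 0.0586).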
